A study of Mus musculus with 28 samples.

Results

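Epidermal stem cells of mouse skin that had been inflamed a month earlier were compared, 6 h after a new wound, with the same cells of skin that had not. All genes with enough reads were taken, and they were measured in 4 RNA-seq libraries, the 2 titled as 6 h wounds after imiquimod and the 2 titled as 6 h wounds of control skin. These are 4 of 16 RNA-seq libraries and of 28 samples in the series. The animals were C57BL/6 mice labelled female, with no transgene or allele given. Both groups started treatment at postnatal day 60, and the skin received cream for 6 days, vanicream in the control group and imiquimod, a Toll-like receptor 7 agonist that provokes psoriasis-like inflammation, in the other. At day 30 both groups were wounded, and the cells were collected 6 h into the wound by sorting for integrin α6, integrin β1 and Sca1 and against CD34. The comparison asks whether a past inflammation changes what these cells do when the skin is injured. The labels give neither the number of mice behind a library nor whether the 2 libraries of a group came from different mice. The p-values therefore measure only spread between libraries, pooled over the 16 RNA-seq libraries fitted together, and this spread may be technical.

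Basal keratinocytes are sensors of damage as well as the cells that rebuild the epidermis. Within hours of injury they release alarmins, interleukin-1 family cytokines and chemokines that call in neutrophils, and they switch on stress keratins and proteases as they begin to migrate. Inflammasomes are protein platforms on which a sensor such as AIM2 activates caspase-1, which matures interleukin-1β and interleukin-18.

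The 6 h libraries held 56925397 and 27655665 counts in control wounds and 76993427 and 26810980 in wounds of imiquimod-treated skin, against 23623968 to 70709213 in the other 12 RNA-seq libraries. Levels are given as CPM, which are counts brought to the same library total with TMM factors, first for the libraries numbered 1 and then for those numbered 2. At 6 h the sorted cells carried the basal program in every library. The basal keratins stood at 17852 and 14954 CPM (Krt5) and 16252 and 14512 CPM (Krt14) in control wounds and at 16341 and 14882 CPM and 16242 and 17132 CPM after imiquimod. Ly6a, which encodes Sca1, was at 608 to 825 CPM and Trp63, the master regulator of stratified epithelium, at 1330 to 1611 CPM, while Cd34 was at 0.375 to 2.08 CPM. None of the 25 basal epidermis genes passed the test, with a median log2 change of -0.08. Both day 30 libraries numbered 1 held at most 1 Xist read and 6023 or more reads of Y-linked genes against their label, whereas in the 4 libraries at 6 h Xist had 13575 to 61086 reads and Y-linked genes no more than 2.

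In total, 28 of the 17299 genes tested (0.162%) passed an adjusted p of 0.05 in edgeR, 23 of them higher after imiquimod (0.133%) and 5 lower (0.0289%). The higher genes included the calprotectin subunits, a neutrophil growth factor and chemokine, the inflammasome genes Aim2 and Casp1 and 2 inducible genes of stressed epidermis. Changes among the 23 ran from 0.60 to 4.55 on the log2 scale, and those among the 5 from -0.67 to -2.89. The 2 imiquimod libraries lay above both controls in 22 of the 23 higher genes, all but Igsf8, and below both controls in 4 of the 5 lower genes, all but Scd1. The same lack of overlap was seen in 3350 of all genes upward (19.4%) and in 2976 downward (17.2%). The called genes were chosen on these same values, so their larger share is no separate support for them. At an unadjusted p under 0.05 there were 2319 genes. The calls rest on a fit that compares libraries of the same number, and without that pairing 6 genes passed, of which Aim2, Cyp7b1, Gm43834, Vav1 and Zfp608 are among the 28. With the pairing but without any 1 of the 4 libraries at 6 h, 2 or 3 genes passed, S100a8 and S100a9 each time and Aim2 where a library numbered 2 was left out. The other 25 of the 28 then passed in none of these fits.

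**Figure D1:**
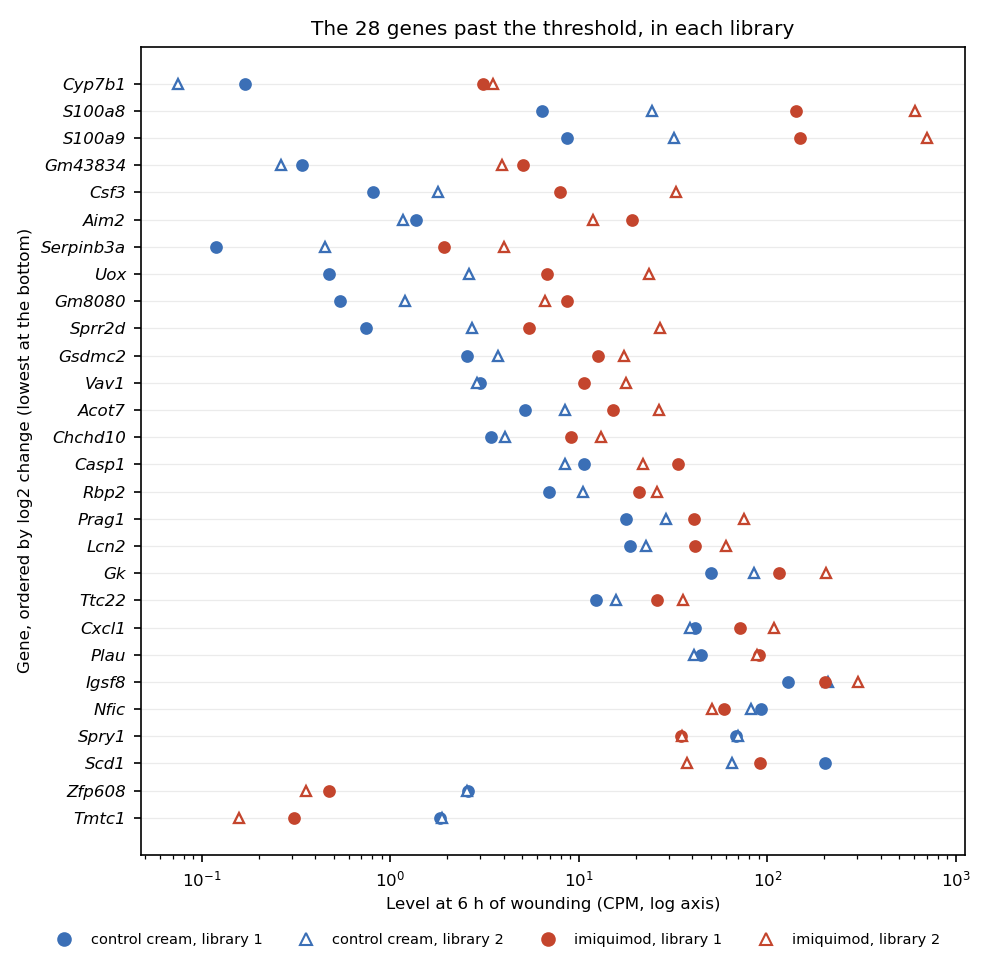
Level of each of the 28 genes past the threshold in the 4 libraries at 6 h of wounding (horizontal log axis, CPM), with control libraries in blue, imiquimod libraries in red, filled circles for libraries numbered 1 and open triangles for those numbered 2. S100a8 ran from 6.41 CPM in control library 1 to 602 CPM in imiquimod library 2, and Igsf8 and Scd1 are the genes whose groups overlap.

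S100a8 and S100a9 encode the 2 chains of calprotectin, an alarmin that binds metal ions needed by microbes and attracts neutrophils. S100a8 (ENSMUSG00000056054.9, chr3:90669071-90670034) stood at 6.41 and 24.3 CPM in control wounds and at 141 and 602 CPM in wounds after imiquimod. S100a9 (ENSMUSG00000056071.12, chr3:90692630-90695721) stood at 8.68 and 32.1 CPM against 148 and 705 CPM. Library 2 was higher than library 1 in each group, and the lower imiquimod library was still above the higher control. Their log2 changes were 4.55 ± 0.22 and 4.28 ± 0.22 (SE, n = 2 libraries per group), each with an adjusted p of 0.000138 by edgeR with the pairing. The differences within the pairs were 4.45 and 4.63 for S100a8 and 4.09 and 4.45 for S100a9. Without the pairing the adjusted p was 0.339 and 0.428. Their promoters are shown because they gave the largest changes among the better measured genes. The 250 bases before each start, from RefSeq on GRCm38.p6 (the assembly of mm10), are chr3:90668821-90669070 on the plus strand and chr3:90695722-90695971 on the minus strand.
S100a8: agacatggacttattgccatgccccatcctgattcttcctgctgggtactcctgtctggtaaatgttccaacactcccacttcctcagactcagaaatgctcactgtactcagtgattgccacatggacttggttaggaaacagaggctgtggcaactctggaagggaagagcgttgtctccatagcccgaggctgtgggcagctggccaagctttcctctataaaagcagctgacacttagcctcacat
S100a9: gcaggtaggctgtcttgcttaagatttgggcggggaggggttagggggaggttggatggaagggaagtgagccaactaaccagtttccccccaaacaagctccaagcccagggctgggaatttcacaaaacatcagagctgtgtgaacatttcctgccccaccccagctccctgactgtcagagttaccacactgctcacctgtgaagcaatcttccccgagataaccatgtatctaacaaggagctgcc
Both strands of these windows were searched for the AP-1 motif TGACTCA, the STAT motif TTCNNNGAA, an NF-kB motif, the E-box CACGTG and the core GCGTG of hypoxia and aryl hydrocarbon response elements, with overlaps between motifs allowed, and capitals mark a match. Neither window holds a match, which says only that these letters are not there. Of 27025 promoters in the same table, 4.43%, 7.18%, 1.17%, 6.05% and 28.2% hold the 5 motifs in that order.

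Of the 21 tested antimicrobial and alarmin genes 3 rose (against 0.133% of all genes) and none fell, and the median log2 change was 1.28 against -0.01 over all genes tested. Besides the calprotectin pair this was Lcn2 (chr2:32384637-32387739), which binds bacterial siderophores, at 18.6 and 22.7 CPM in controls and 41.1 and 60.5 CPM after imiquimod (1.28 ± 0.15, adjusted p = 0.017, and 0.834 without the pairing). In 15 of the 21 genes both imiquimod libraries were above both controls (71.4% against 19.4% of all genes). Of the others, Slpi, a protease inhibitor of mucosal surfaces, stood at 3.23 and 8.05 CPM against 12.3 and 19.9 CPM without passing (adjusted p = 0.085). Stfa1 and Stfa3, members of a family of near-identical cystatin genes among which reads can be split wrongly, stood at 105 and 182 against 327 and 464 CPM and at 64.9 and 141 against 225 and 376 CPM (adjusted p = 0.578 and 0.524). Calprotectin is also abundant in neutrophils. The list of 14 neutrophil markers summed to 88.1 and 173 CPM in controls and 468 and 1497 CPM after imiquimod, and without S100a8 and S100a9 to 73.0 and 117 against 178 and 190 CPM. All 5 of its tested members had positive changes, and 9 were not tested. S100a8, S100a9, Cxcr2 and Mmp9 are among the 5, and every other marker of the list had at most 6 reads in a library at 6 h. Elane and Ngp had 0 reads in the 4 libraries, and the 10 neutrophil markers other than S100a8, S100a9, Cxcr2 and Mmp9 summed to 0.321 and 0.262 CPM in controls and 0.141 and 0.158 CPM after imiquimod. Cxcr2, a receptor for such chemokines, was at 70.5 and 114 CPM against 169 and 184 CPM (0.98 ± 0.69, adjusted p = 0.626), and Mmp9, a gelatinase, at 2.20 and 2.73 against 9.07 and 5.73 CPM (1.62 ± 0.83, adjusted p = 0.488). The part of neutrophils in these changes was not tested.

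Among the signals that recruit or sustain neutrophils, 2 of 20 tested chemokines and colony-stimulating factors rose (against 0.133% of all genes) and none fell. Csf3 (chr11:98700183-98703631), the granulocyte colony-stimulating factor, stood at 0.812 and 1.80 CPM in control wounds (48 reads in each) and at 7.93 and 32.8 CPM after imiquimod (619 and 831 reads). The imiquimod libraries did not overlap the controls, and library 2 was higher in both groups. The log2 change was 3.74 ± 0.39 with an adjusted p of 0.017 by edgeR, and 0.126 without the pairing. Cxcl1 (chr5:90891245-90893121), a ligand of the receptor encoded by Cxcr2, stood at 41.0 and 39.0 CPM against 71.2 and 108 CPM (1.13 ± 0.16, adjusted p = 0.0416, and 0.748 without the pairing). The related Cxcl2 and Cxcl3 stood at 1.78 and 5.24 against 4.21 and 25.9 CPM and at 1.57 and 2.06 against 3.52 and 14.5 CPM, without passing (adjusted p = 0.203 and 0.157). Over the whole list 11 of 20 changes were positive, with a median of 0.23. Ccl20, which attracts T cells and dendritic cells, was at 80.9 and 136 CPM against 78.6 and 72.9 CPM (adjusted p = 0.822).

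Aim2, the sensor of cytosolic DNA, and Casp1, the protease it activates, were the called members of the 22 tested IL-1 family and inflammasome genes. Thus 2 rose and 0 fell, against 0.133% and 0.0289% of all genes. Aim2 (ENSMUSG00000037860.15, chr1:173349547-173466040) stood at 1.37 and 1.16 CPM in control wounds (81 and 31 reads) and at 19.1 and 11.9 CPM after imiquimod (1488 and 302 reads). Library 1 was the higher one in each group, the reverse of the order seen for calprotectin. The log2 change was 3.61 ± 0.23 with an adjusted p of 0.00057 by edgeR, and it held without the pairing (adjusted p = 0.00123). Casp1 (ENSMUSG00000025888.5, chr9:5298517-5307281) stood at 10.6 and 8.47 CPM against 33.4 and 22.0 CPM (1.53 ± 0.14, adjusted p = 0.00492, and 0.126 without the pairing). The promoter of Aim2 is shown as that of the next of the better measured genes by size of change with an entry in the table, after Csf3, which has no match there. It is the table's entry, chr1:173420354-173420603 on the plus strand, which lies inside the annotated span of the gene and so marks 1 of its starts.
Aim2: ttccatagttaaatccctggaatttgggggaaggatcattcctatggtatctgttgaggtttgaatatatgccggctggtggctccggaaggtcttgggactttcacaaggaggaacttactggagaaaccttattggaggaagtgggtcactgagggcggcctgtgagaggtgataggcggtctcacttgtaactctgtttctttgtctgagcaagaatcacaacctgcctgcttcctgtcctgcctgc
It holds none of the 5 motifs.

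Cytokines of the IL-1 family differed from each other. Il18 stood at 0.829 and 0.487 CPM in controls and 5.62 and 4.90 CPM after imiquimod (2.97 ± 0.45), just short of the threshold at an adjusted p of 0.0525. Il1b stood at 1.57 and 1.42 CPM against 0.948 and 0.75 CPM (-0.81 ± 0.51, adjusted p = 0.549) and Il1a at 5.09 and 5.66 against 3.25 and 4.38 CPM (-0.51 ± 0.37, adjusted p = 0.612). Il33, an alarmin of epithelial nuclei, was at 104 and 96.7 CPM against 225 and 321 CPM (1.42 ± 0.45, adjusted p = 0.279). Casp4, the caspase of the noncanonical inflammasome, was at 31.5 and 38.7 CPM against 58.3 and 60.2 CPM (0.77 ± 0.11, adjusted p = 0.0516). In the whole list 15 of 22 changes were positive, with a median of 0.21, and both imiquimod libraries were above both controls in 8 genes (36.4% against 19.4% of all genes) and below them in 5 (22.7% against 17.2%). None of the 20 tested genes of the IL-17, IL-36 and IL-20 axis passed. Changes were positive in 14 and negative in 6, with a median of 0.10. Both imiquimod libraries were above both controls in 6 genes (30% against 19.4% of all genes) and below them in 3 (15% against 17.2%). The members given next are among the 14. Il19 stood at 1.35 and 2.77 against 10.0 and 35.7 CPM (adjusted p = 0.0704), Il36a at 0.135 and 0.15 against 0.781 and 1.15 CPM (adjusted p = 0.126) and Il36g at 7.69 and 7.79 against 18.3 and 21.6 CPM (adjusted p = 0.131).

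**Figure D2:**
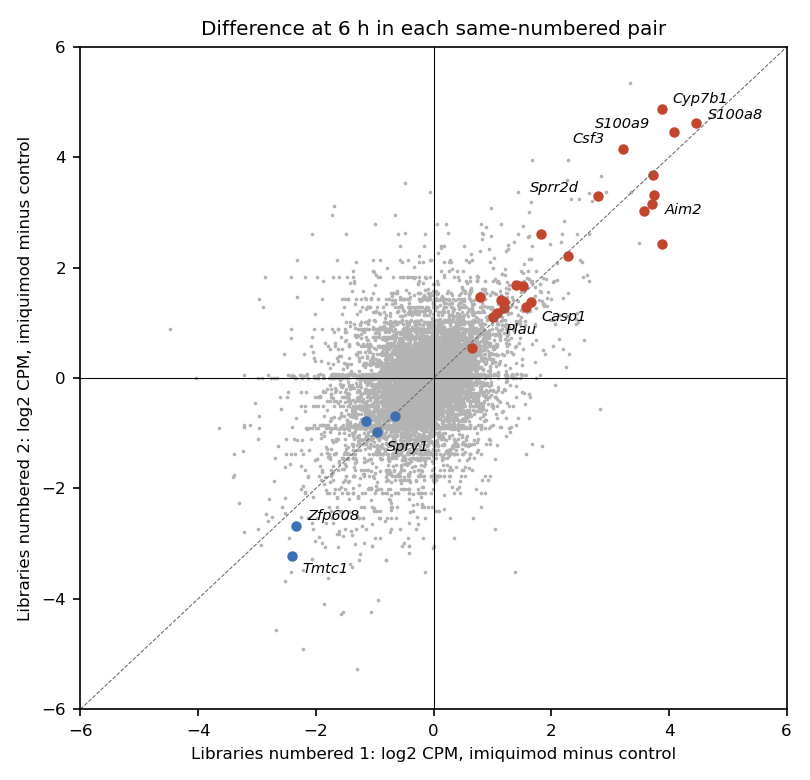
Difference in log2 CPM between the imiquimod and the control library numbered 1 (horizontal) and between those numbered 2 (vertical) at 6 h, each grey point a gene, with genes past the threshold in red (higher) or blue (lower) and the line of equal differences dashed. The called genes lie along that line, S100a8 at 4.45 and 4.63 and Spry1 at -0.96 and -0.98, and 1 gene lies beyond the plotted limit of 6.

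Genes of the inducible cornified envelope and stress keratins held 2 called genes of 22 tested, Sprr2d and Serpinb3a (against 0.133% of all genes that rose), and a median of 1.13. Sprr2d (chr3:92339140-92340873), a small proline-rich envelope precursor, stood at 0.744 and 2.70 CPM against 5.46 and 26.9 CPM (3.12 ± 0.25, adjusted p = 0.00363, and 0.328 without the pairing). Serpinb3a (chr1:107045587-107052303), a serpin of stressed squamous epithelium, stood at 0.118 and 0.449 CPM (7 and 12 reads) against 1.92 and 3.99 CPM (150 and 101 reads), a change of 3.52 ± 0.40 (adjusted p = 0.0163, and 0.126 without the pairing). Both belong to families of near-identical copies, so reads may be assigned to the wrong member. The keratins of activated epidermis had wide errors. Krt6a stood at 1406 and 1982 CPM against 3447 and 4843 CPM (1.29 ± 1.14, adjusted p = 0.712), and Krt16 at 1216 and 2390 CPM against 2835 and 3892 CPM (0.96 ± 0.94, adjusted p = 0.74). For both genes the groups at 6 h do not overlap. The differences within the 6 h pairs were 1.29 and 1.29 for Krt6a and 1.22 and 0.70 for Krt16. In day 6 controls, which enter the pooled spread, Krt6a stood at 231 and 6.49 CPM. None of the 31 genes of suprabasal differentiation passed, and Krt10, the keratin of spinous cells, was at 2914 and 2656 CPM against 3685 and 2578 CPM (0.15 ± 0.26, adjusted p = 0.87). Among 38 genes of wound migration 1 rose (against 0.133%) and none fell. This was Plau (chr14:20836662-20843388), the urokinase that frees migrating keratinocytes from fibrin, at 44.5 and 40.7 CPM against 89.8 and 87.6 CPM (1.06 ± 0.14, adjusted p = 0.0356, and 0.185 without the pairing).

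The other higher genes whose mean reached 2 log2 CPM have less shared roles. Gsdmc2 (chr15:63824328-63845193), of the pore-forming gasdermins, stood at 2.55 and 3.71 CPM against 12.7 and 17.3 CPM (2.27 ± 0.30, adjusted p = 0.0342). Its neighbours in the family are near-identical, and Gsdmc was at 25.2 and 42.8 CPM against 91.8 and 60.9 CPM (adjusted p = 0.507). Vav1 (chr17:57279100-57329236), a signalling protein best known from blood cells, stood at 2.98 and 2.88 CPM against 10.7 and 17.8 CPM (2.21 ± 0.24, adjusted p = 0.0118, and 0.0186 without the pairing). Of 17 tested macrophage and monocyte markers 15 had negative changes (median -0.78), and of 6 Langerhans and dendritic cell markers 4 (median -0.39). No member of these lists passed. Among single leukocyte markers, in reads of libraries of unequal depth, Ptprc had 18 and 2 in controls and 9 and 1 after imiquimod. Cd74, with 587 and 145 against 907 and 213, and Cd14, with 65 and 29 against 118 and 59, were among the few with positive changes. None of these 3 passed. The 13 T cell markers summed to 343 and 447 CPM against 390 and 428 CPM, and those other than Thy1 to 1.35 and 1.46 against 0.999 and 1.07 CPM. The part of leukocytes in the change of Vav1 was not tested. In bulk RNA, fewer cells of a type and less RNA per cell cannot be told apart. Acot7, a thioesterase of fatty acyl-CoA, stood at 5.21 and 8.39 CPM against 15.1 and 26.7 CPM (1.60 ± 0.20, adjusted p = 0.0186). Gk, the glycerol kinase gene on the X chromosome, stood at 50.1 and 85.3 CPM against 114 and 205 CPM (1.23 ± 0.11, adjusted p = 0.00394). Chchd10, a mitochondrial protein gene, Rbp2, which encodes a retinol-binding protein, and Prag1, of a family of pseudokinases, changed by 1.54 ± 0.16, 1.44 ± 0.18 and 1.29 ± 0.14. Ttc22 and Igsf8 rose by 1.13 ± 0.16 and 0.60 ± 0.09. Of these genes only Vav1 passed without the pairing. Named after their values were seen, since they lie below that mean level, are Cyp7b1, an oxysterol hydroxylase gene with 10 and 2 reads in controls and 243 and 89 after imiquimod (4.55 ± 0.52, adjusted p = 0.0163), Uox, the urate oxidase gene (3.46 ± 0.34), and the predicted genes Gm43834 (3.89 ± 0.37) and Gm8080 (3.28 ± 0.41). Gm8080 (chr1:107020137-107025325) is a pseudogene next to Serpinb3a.

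The 5 genes that fell include a signalling inhibitor and a transcription factor. Spry1 (ENSMUSG00000037211.12, chr3:37639947-37644599), a Sprouty protein that restrains receptor tyrosine kinase signalling, stood at 67.8 and 69.6 CPM in controls and 34.8 and 35.1 CPM after imiquimod. Nfic (ENSMUSG00000055053.17, chr10:81396191-81431919), of the nuclear factor I family, stood at 92.7 and 81.4 CPM against 58.6 and 50.7 CPM. Library values within a group lay close together for both genes, and the groups did not overlap. Spry1 changed by -0.97 ± 0.14 (adjusted p = 0.0416) and Nfic by -0.67 ± 0.10 (adjusted p = 0.0456), while without the pairing the adjusted p was 0.875 and 0.328. Scd1, the desaturase that makes oleate, stood at 202 and 64.5 CPM against 91.0 and 37.4 CPM (-0.97 ± 0.12, adjusted p = 0.0186). Its groups overlap, it falls within each pair, and without the pairing its adjusted p was 0.876. Scd1 is also a marker of the sebaceous gland, and 11 of the 14 changes in the list of infundibulum and sebaceous gland markers were negative (median -0.45); the part of such cells in the result was not tested. Zfp608, a zinc finger gene, and Tmtc1, of the endoplasmic reticulum, are named after their values were seen. Zfp608 had 152 and 68 reads in controls and 37 and 9 after imiquimod (-2.58 ± 0.31, adjusted p = 0.0186, and 0.0158 without the pairing), and Tmtc1 had 108 and 50 against 24 and 4 (-2.89 ± 0.41, adjusted p = 0.0456). The promoter windows of Spry1 (chr3:37639697-37639946, plus strand) and Nfic (chr10:81427174-81427423, minus strand, inside the annotated gene) are shown as those of the better measured genes that fell, with motif matches in capitals.
Spry1: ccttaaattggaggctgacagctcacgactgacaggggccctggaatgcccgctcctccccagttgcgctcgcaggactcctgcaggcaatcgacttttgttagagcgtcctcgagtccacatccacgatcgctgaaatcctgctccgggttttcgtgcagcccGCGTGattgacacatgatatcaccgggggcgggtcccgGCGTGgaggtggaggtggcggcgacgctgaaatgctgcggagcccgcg
Nfic: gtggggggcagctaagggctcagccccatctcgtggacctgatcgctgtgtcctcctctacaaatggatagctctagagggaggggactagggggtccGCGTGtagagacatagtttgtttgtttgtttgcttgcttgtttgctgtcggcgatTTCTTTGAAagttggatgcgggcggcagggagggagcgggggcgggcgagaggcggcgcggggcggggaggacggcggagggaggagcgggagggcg
Spry1 holds GCGTG at 2 places, starting 86 and 48 bases before the start. Nfic holds GCGTG 152 bases before its start and the STAT motif, as TTCTTTGAA, 97 bases before it. Of the 28 called genes 19 have an entry in the promoter table. Of those, 6 hold GCGTG (against 28.2% of all promoters in the table) and 2 CACGTG (against 6.05%). The AP-1, STAT and NF-kB motifs are held by 1 each (against 4.43%, 7.18% and 1.17%).

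None of the 34 tested genes of oxidative phosphorylation passed, and all 34 had positive changes (median 0.28), and in 31 of them both imiquimod libraries were above both controls (91.2% against 19.4% of all genes). Ndufa4, the member with the widest change, stood at 150 and 152 CPM against 230 and 242 CPM (0.64 ± 0.10, adjusted p = 0.058). Mitochondrially encoded transcripts took 1.44% and 1.13% of counts in controls and 1.45% and 1.21% after imiquimod. In sterol and fatty acid synthesis 26 of 31 changes were positive (median 0.32) although the called member, Scd1, fell. Sqle, which makes squalene epoxide, stood at 45.1 and 70.6 CPM against 98.1 and 120 CPM (0.95 ± 0.21, adjusted p = 0.128).

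Of 31 AP-1 and immediate early genes 28 had negative changes (median -0.43), and both imiquimod libraries were below both controls in 6 of them (19.4% against 17.2% of all genes), so for most members the groups overlapped. Fos stood at 1837 and 2610.3 CPM against 1312 and 2011 CPM (-0.43 ± 0.21, adjusted p = 0.414) and Atf3, a stress-induced member of the family, at 1099.7 and 1428 CPM against 409 and 903 CPM (-1.04 ± 0.45, adjusted p = 0.39). In the circadian clock 15 of 19 changes were negative (median -0.56), with Per1 at 171 and 195 CPM against 108 and 138 CPM (adjusted p = 0.308). The labels do not give the hour of collection. All 24 mitosis genes had negative changes (median -0.30), but the medians within the pairs were -0.73 and 0.09, and Mki67 stood at 180 and 92.0 CPM against 105 and 87.4 CPM (-0.43 ± 0.19, adjusted p = 0.382). Control library 1 was the highest of the 4 for Mki67. None of the 19 tested genes of the STAT3 axis passed, and Stat3 was at 814 and 1157 CPM against 831 and 1028 CPM (-0.07 ± 0.11, adjusted p = 0.846). In all, 22 of the 28 pathway lists held no called gene.

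**Figure D3:**
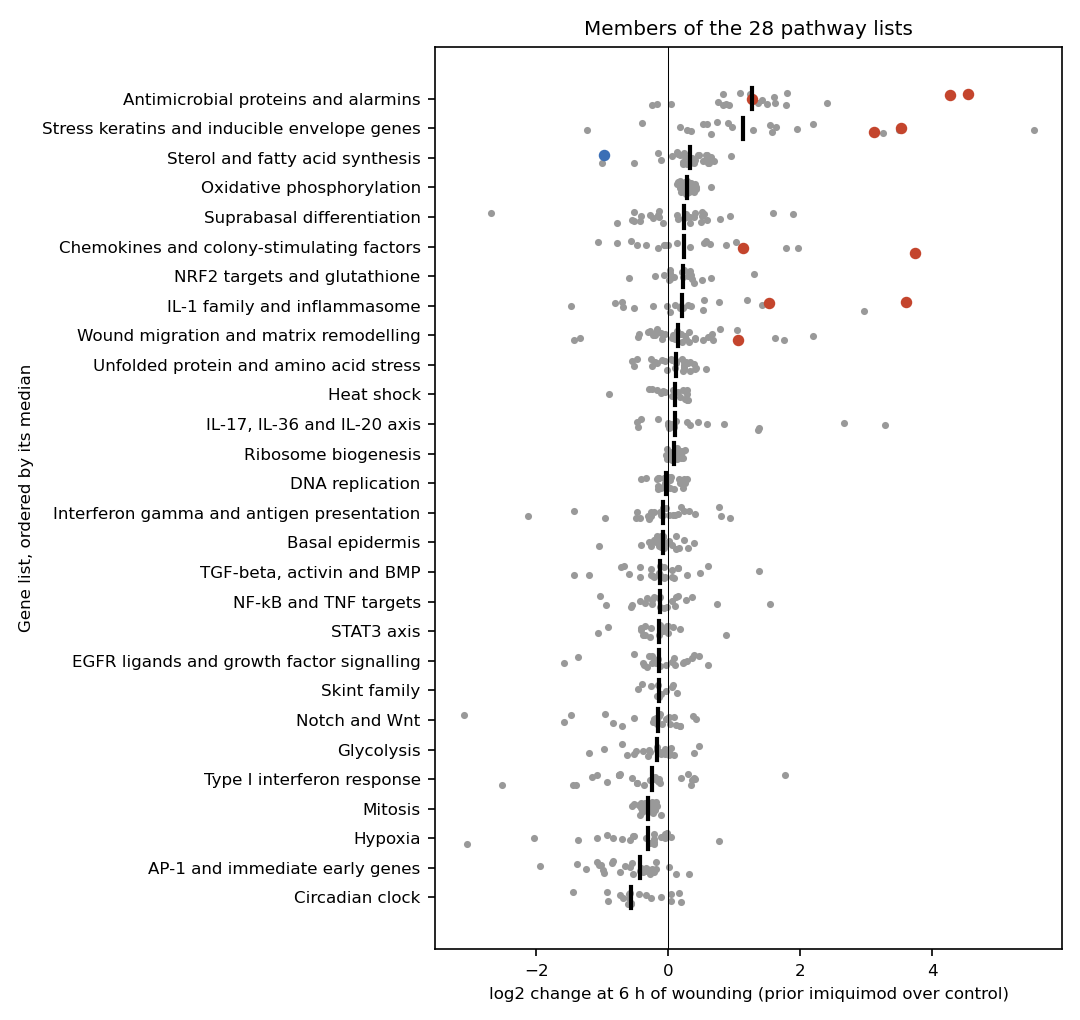
Log2 change at 6 h of each tested member of the 28 pathway lists (horizontal axis, prior imiquimod over control), with called genes as large red (higher) or blue (lower) points, other members in grey and the median of a list as a black bar; vertical scatter within a row has no meaning. The medians run from -0.56 for the circadian clock to 1.28 for antimicrobial proteins and alarmins.

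Markers of cells that a sort of epidermis should remove tended to be lower after imiquimod. Of the 17 lists of other cells and of RNA quality, 15 had a median below 0. They include the RNA quality lists of nuclear noncoding RNAs (-0.31) and histones (-0.02), and lists with few tested members, such as 4 of 13 for T cells. The exceptions were neutrophils (1.62) and mitochondrially encoded transcripts (0.09). Some of the 15 fell only between the libraries numbered 1. Medians within the pairs were -0.72 and 0 for macrophages and monocytes and -0.68 and 0.04 for Langerhans and dendritic cells. They were -0.55 and 0.11 for muscle, pericytes and fat, -0.95 and 0.03 for Merkel cells and nerve and -0.13 and 0.69 for histones. The remaining lists with a median below 0 were negative in both pairs. In 8 of 15 tested fibroblast markers both imiquimod libraries were below both controls (53.3% against 17.2% of all genes), Dcn for example with 1027 and 214 reads against 175 and 24. The summed level of the fibroblast list was 889 and 968 CPM against 952 and 832 CPM, most of it from Postn and Thy1. Postn had 21286 and 10501 reads against 37937 and 8456, and Thy1 had 20188 and 11894 against 30383 and 10817. Of the 15 tested fibroblast markers 13 had negative changes (median -1.62). Markers of the inner root sheath and hair shaft summed to 24.6 and 118 CPM in controls and 19.1 and 25.8 CPM after imiquimod, with control library 2 standing apart. The part of these cells in the changes above was not tested.

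Values at the other times come from separate libraries, so each comparison has its own controls. At 12 h of wounding 20 genes passed (0.116%), 13 of them higher (0.0751%) and 7 lower (0.0405%). All 23 genes higher at 6 h had positive changes at 12 h, and in all 23 the 12 h imiquimod libraries lay above both 12 h controls (against 20.4% of all genes). Of these, 10 passed at 12 h too, which is 43.5% of the 23 and 76.9% of the 13, namely Aim2, Casp1, Csf3, Cyp7b1, Gm43834, Gm8080, S100a8, S100a9, Sprr2d and Vav1. All 5 lower genes had negative changes at 12 h, with no overlap of the groups in 4 (against 19.8% of all genes), and Zfp608 passed. S100a8 stood at 54.5 and 54.6 CPM in 12 h controls and 326 and 287 CPM after imiquimod (2.49 ± 0.20, adjusted p = 0.00869). The change at 6 h exceeded that at 12 h by 2.06 ± 0.27 for S100a8 and 1.39 ± 0.31 for Aim2. However, 0 of 17299 genes passed the edgeR test of that difference. An unadjusted p under 0.05 was held by 411, which is below the share of 0.05 expected where no gene differs. DESeq2 called 4.

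In unwounded skin at day 30, 5 genes passed (0.0289%), 4 of them higher (0.0231%) and 1 lower (0.00578%), and 2 of the 23 genes higher at 6 h were among these, Aim2 and Casp1. Aim2 stood at 1.14 and 1.18 CPM in day 30 controls and at 9.96 and 10.6 CPM after imiquimod (3.15 ± 0.24, adjusted p = 0.00777). Its change at 6 h differed from that by 0.46 ± 0.34 (adjusted p = 0.609). Calprotectin did not share this. S100a8 stood at 5.06 and 1.15 CPM in day 30 controls and 7.06 and 0.757 CPM after imiquimod (0.13 ± 0.26, adjusted p = 0.916), so its groups overlapped in unwounded skin. The difference between the times was 4.42 ± 0.33 for S100a8 and 4.19 ± 0.33 for S100a9 (adjusted p = 0.00538 for each). Gk stood at 24.9 and 22.7 CPM against 22.3 and 19.5 CPM at day 30, and its change was larger at 6 h by 1.42 ± 0.15 (adjusted p = 0.0407). These 3 genes (0.0173% of those tested) were all that passed this test by edgeR, while 2292 had an unadjusted p under 0.05, DESeq2 called 237 and edgeR without the pairing called 0. Without either control library or either imiquimod library of day 30 the count was 0 or 1. In 13 of the 23 genes higher at 6 h both 6 h controls were above both day 30 controls (against 33.9% of all genes), S100a8, Csf3, Lcn2, Cxcl1 and Gk among them. Csf3 had no reads in the day 30 controls and was at 0.0905 and 0.103 CPM in the day 30 imiquimod libraries. Aim2 and Casp1 were not among the 13.

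**Figure D4:**
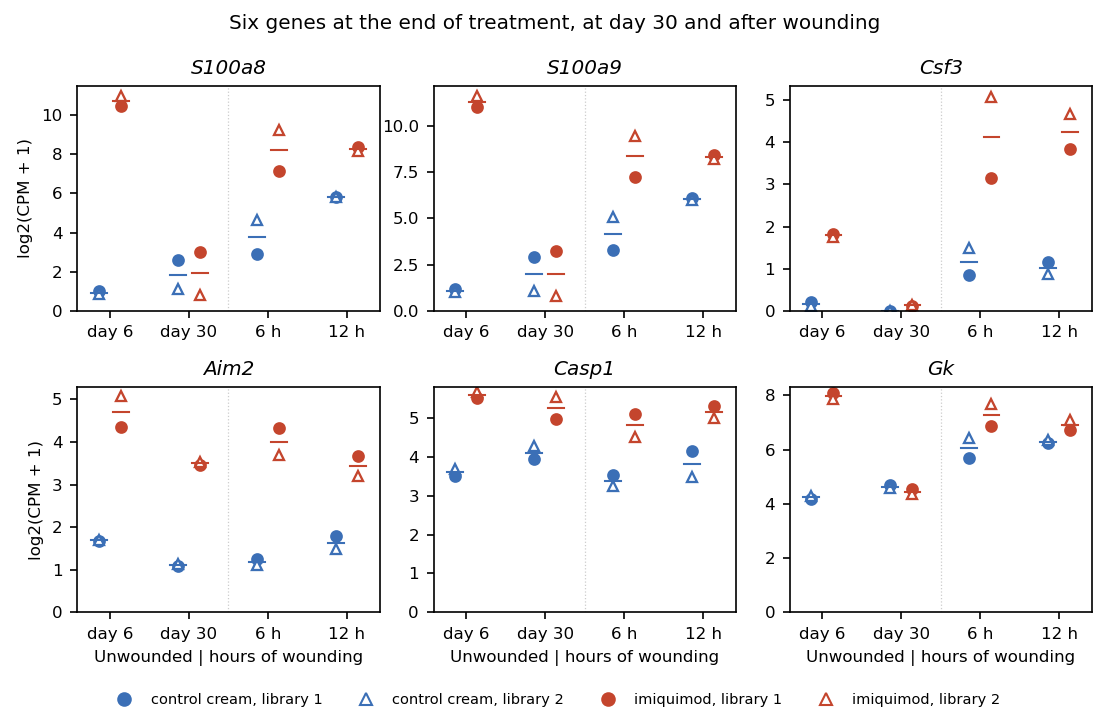
Level of 6 genes, as log2(CPM + 1), in each library at the end of treatment (day 6), at day 30 and at 6 h and 12 h of wounding, with control libraries in blue, imiquimod libraries in red, circles for libraries numbered 1, triangles for those numbered 2 and a bar for the mean of the 2. S100a8 and S100a9 overlap between groups at day 30 and do not at 6 h, while Aim2 and Casp1 are apart at all 4 times.

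At day 6, at the end of treatment, 8462 genes passed (48.9%), 4925 higher (28.5%) and 3537 lower (20.4%). Of the 23 genes higher at 6 h, 21 were called higher at day 6 (91.3% against 28.5% of all genes), all but Gm43834 and Prag1, and of the 5 lower genes 4 were called lower, all but Scd1. In 16 of the 23 both 6 h imiquimod libraries were below both day 6 imiquimod libraries (against 34.7% of all genes), S100a8 for example at 141 and 602 CPM against 1398 and 2021 CPM. In 4 of the 23 both were above (against 31.4% of all genes), namely Csf3, Cxcl1, Igsf8 and Gm43834. Csf3 was at 2.54 and 2.38 CPM after imiquimod at day 6 and at 7.93 and 32.8 CPM in the 6 h wounds, and the difference of its changes was -0.47 ± 0.69 (adjusted p = 0.663). The change at 6 h differed from that at day 6 in 4232 genes (24.5%), 1576 of them with a more positive value at 6 h (9.11%) and 2656 with a more negative one (15.4%).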

How the data were processed

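RNA was measured in 16 libraries, 8 groups of 2, of which the 4 at 6 h of wounding carry the results; 12 further samples of chromatin accessibility were left aside. Per the labels' protocols, Illumina TruSeq libraries were made from RNA extracted with Trizol and then a Zymo kit. The authors deposited counts, 1 whole number per gene and library; the submitters' processing notes name STAR and mm10, with neither the version nor the annotation release. Whether the counts use strand is not stated, so overlapping and antisense genes cannot be told apart. Of 47729 gene IDs 47224 matched a symbol; IDs without one held at most 0.0887% of counts.

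Counts were fitted in R 4.3.3 by the quasi-likelihood F test of edgeR 4.0.16, with TMM scaling, robust dispersions and filterByExpr by group (17299 genes kept), in 1 model of all 16 libraries, with 8 group means and 4 terms for the replicate number, 1 within each time (4 residual degrees of freedom, common biological coefficient of variation 14.2%). Groups of 2 allow no exact two-sided permutation p below 0.333, so the spread was shared between genes. Two-sided p values were adjusted over all 17299 genes of a comparison (Benjamini-Hochberg, threshold 0.05); SE comes from the F statistic. Same-numbered libraries deviated together. With the group mean taken off each gene, log2 CPM (prior count 2) of the 2 groups correlated across genes. The correlation was 0.220 at day 6, 0.452 at day 30, 0.539 at 6 h and 0.323 at 12 h. The pairing was set with the question and was not chosen by these correlations. What the replicate number marks is not given in the labels. Counts of replicates differed by far more than sampling noise (chi-square per gene 55.1 and 57.1 at 6 h). No collapse of reads to molecules is stated, so precision from counts covers counting error alone. The fit was run on simulated data with the same spread for every gene and known changes only in genes of many reads. Its pass mark was recovery of the mean change, not the rate of false calls, and it does not cover genes of few reads.

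Named were, in each direction, the 12 largest changes (or fewer) among genes past the threshold, with groups that do not overlap and a mean that reaches 2 log2 CPM (predicted genes and pseudogenes left out), a panel of 14 genes, up to 3 called members per list and, for differences between times, up to 4 genes per direction. List members printed beyond these, such as Slpi, Il36a and Per1, fall outside that rule and are examples. The genes compared, the 28 pathway lists and 17 lists of other cells or RNA quality (892 genes, 890 found) were chosen with earlier results of these data known. Alternatives were no pairing, DESeq2 1.42.0, RLE scaling, other filters, fewer libraries in the fit, thinning to one depth and leaving out each library. Promoters are from RefSeq (GRCm38.p6).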

Additional observations from a re-analysis of the deposited data

Results flagged for a closer look

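The effect of imiquimod differed between times by the edgeR test of the difference itself in the genes below; values are the log2 change at 6 h of wounding minus that at the other time. Against unwounded skin at day 30 the change was more positive at 6 h, by 4.42 for S100a8 (adjusted p = 0.00538), 4.19 for S100a9 (adjusted p = 0.00538) and 1.42 for Gk (adjusted p = 0.0407). None of these 3 passed without the pairing.

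Against the end of treatment at day 6 most of the differences given here were negative. The difference was -7.96 for Lcn2 (adjusted p = 4.92e-06), -6.79 for S100a9 (adjusted p = 3.12e-05), -6.25 for S100a8 (adjusted p = 4.83e-05) and -3.53 for Cxcl1 (adjusted p = 0.000145) among defence genes. In envelope and cytokine genes it was -7.49 for Serpinb3a (adjusted p = 0.000901), -6.85 for Sprr2d (adjusted p = 9.5e-05), -6.84 for Il19 (adjusted p = 0.0036) and -2.44 for Il1b (adjusted p = 0.036). In the other genes higher at 6 h it was -3.08 for Chchd10 (adjusted p = 0.00021), -2.92 for Acot7 (adjusted p = 0.000506), -2.85 for Rbp2 (adjusted p = 0.000357), -2.59 for Gk (adjusted p = 7.19e-05), -2.22 for Vav1 (adjusted p = 0.0033) and -1.53 for Gsdmc2 (adjusted p = 0.0313). Mki67, Stat3 and Scd1 differed by -1.47, -0.716 and -0.726 (adjusted p = 0.00663, 0.0102 and 0.014). More positive at 6 h were 5.43 for Skint7 (adjusted p = 4.92e-06), 5.13 for Dab1 (adjusted p = 0.00136), 5.05 for Cdh4 (adjusted p = 0.000465) and 4.77 for Nptx1 (adjusted p = 0.00021), genes that were lower at day 6, and 1.44 for Spry1 (adjusted p = 0.00184) and 0.939 for Prag1 (adjusted p = 0.00914). Prag1 stood at 34.4 and 34.0 CPM in controls and 42.6 and 44.6 CPM after imiquimod at day 6.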

How the results depend on the processing

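With 2 libraries a group, the count of called genes depended on how the spread was estimated. All 38 genes followed through the alternatives kept their direction in each that left out no library. Among these 9 alternatives, Krt6a, Krt16 and Il33, which were not called, each passed in 1. Against 28 genes at 6 h, 6 passed without the replicate block, 380 with DESeq2 (including all 28), 281 with no filter on low counts (including all 28), 852 with only the 4 libraries and the pairing (including all 28), 0 with these libraries and no pairing, and 49 without the day 30 libraries (26 of the 28). Leaving out 1 library gave 2 to 3 with the pairing, where the partner of that library then dropped out of the estimate, and without it 1 and 0 (without control library 1 or 2) and 8 and 1 (without imiquimod library 1 or 2). RLE scaling (31, including all 28), a stricter filter (21) and thinning to one depth (39, with 26 of the 28) stayed within 1.5 times. For 6 h against 12 h, DESeq2 gave 4 genes and only the compared libraries with the pairing 2, and leaving out 1 library gave 0. For 6 h against day 30, 3 became 0 without the replicate block, 237 with DESeq2, 125 with no filter, 8 and 0 with only the compared libraries (with and without the pairing), and without 1 library 0 to 1 with the pairing and 0 each time without it. For 6 h against day 6, 4232 became 2056 without the replicate block, 2713 and 1195 with only the compared libraries, and 1513 to 4713 without 1 library. With no pairing and without control library 1 or 2 it was 1784 and 1037 at 6 h and 1492 and 710 at day 6, and without imiquimod library 1 or 2 it was 580 and 1432 at 6 h and 1914 and 1461 at day 6. The 6326 genes whose groups do not overlap became 11411 to 13390 without 1 library, since 3 libraries overlap less often than 4. Of 764 list medians under the alternatives, fits without 1 library included, 256 moved by over 1 SD of the medians within the 2 pairs. Some changes of single genes reversed when 1 library was left out. With the pairing and without 1 library, Krt10 ran from -0.0435 to 0.340, Krt14 from -0.0285 to 0.239 and Stat3 from -0.171 to 0.0303. With the pairing, Krt10 was -0.0435 without imiquimod library 1 and Stat3 was 0.00111 without imiquimod library 2. With no pairing and without control library 1, Krt5 was 0.065, Mki67 0.0689 and Scd1, which had been called, 0.00246. With no pairing Stat3 was 0.189 without control library 2 and 0.0583 without imiquimod library 1, and Krt10 was -0.115 without imiquimod library 1. The causes were not tested. Depth limits genes of few reads: at 6 h Tmtc1 had 4 and Cyp7b1 2 reads in 1 library.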
